A study of Caenorhabditis elegans with 2 samples.

Results

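The neuropeptide genes of *Caenorhabditis elegans* whose names start with flp- or nlp- were examined in a map of the zinc finger protein ZTF-11 made by chromatin immunoprecipitation and sequencing (ChIP-seq). All protein-coding genes of the nuclear genome with such a name were taken, which gave 31 *flp* and 71 *nlp* genes, 102 of 19973 in all. There was 1 group of 2 biological replicates, made from whole L4 larvae of mixed sex, which the labels call pooled male and female. The strain was OP236, with the genotype unc-119(ed3) III; wgIs236, in which wgIs236 is an insertion that targets *ztf-11*. The tagged protein is eGFP-ZTF-11, with the antibody labelled ztf-11, and the promoter that drives it is not given in the sources used here. No second condition or untagged strain was among the samples, so the data show where peaks lay and how far the replicates shared them. Whole animals were used, so a peak in neurons and a peak in other tissues cannot be told apart.

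Neuropeptide precursors are made in neurons and some other cells, cut at pairs of basic residues in dense core vesicles, and often amidated before release. The *flp* genes encode FMRFamide-like peptides, which share an amidated arginine-phenylalanine end, and the *nlp* genes encode a mixed class of other peptides, several of them made in the epidermis as antimicrobial peptides. The released peptides act mainly through G protein-coupled receptors and are known in this worm for their part in locomotion, sleep, egg laying and feeding. ZTF-11 is a Myt1-family protein, a family known for holding down genes of other fates while neurons form.

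A gene was counted as having a peak when a summit fell in its promoter window, here the stretch that starts 1000 bp before any annotated 5′ end and stops 200 bp after it. Its value was the highest signal among such peaks, a number the authors gave each peak on a scale that is not stated. The lists were called separately, so signal is compared only within a list, and rank 1 is the strongest nuclear peak of a list. The pooled list held 30000 peaks of 280 bp with signal from 5.80 to 77.1 and a median of 7.71. The replicate 1 list held 29985 nuclear peaks of 390 bp, and the replicate 2 list 22869 peaks of 196 bp. By the deposited q value column 0 replicate 1 peaks, all 22869 replicate 2 peaks and 132 pooled peaks would pass 0.05, so what replicate 1 alone or the pooled list shows carries that doubt. No read counts are given, so depth is unknown.

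The sequences under 5 of the pooled peaks are printed because the rest of the text turns on them. The peak of *flp-17* is the strongest in any *flp* promoter window of the pooled list and that of *nlp-19* the strongest in any *nlp* window, and at each the replicates gave overlapping peaks. The peaks of *flp-14*, *flp-34* and *nlp-31* hold runs of short repeats, and the last of these lies in the windows of both *nlp-31* and *nlp-34*. Each run is the whole 280 bp peak, in build ce11 (WBcel235) and read from the RefSeq genome on the strand of its gene. They lie at chrIV:17192307-17192586 on the minus strand for *flp-17*, at chrIII:12909876-12910155 on the plus strand for *flp-14* and at chrV:1028895-1029174 on the minus strand for *flp-34*. The other two lie at chrX:10958199-10958478 on the plus strand for *nlp-19* and at chrV:3979280-3979559 on the plus strand for *nlp-31*. The *flp-34* peak has its summit in an intron of the gene itself, and the others have theirs between genes. Capitals mark CCTA or, on the other strand, TAGG.
flp-17: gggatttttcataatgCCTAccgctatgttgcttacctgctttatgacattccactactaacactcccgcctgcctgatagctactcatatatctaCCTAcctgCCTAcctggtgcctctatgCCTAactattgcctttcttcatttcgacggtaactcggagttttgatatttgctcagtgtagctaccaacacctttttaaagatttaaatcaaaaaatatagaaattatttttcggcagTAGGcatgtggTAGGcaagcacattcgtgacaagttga
flp-14: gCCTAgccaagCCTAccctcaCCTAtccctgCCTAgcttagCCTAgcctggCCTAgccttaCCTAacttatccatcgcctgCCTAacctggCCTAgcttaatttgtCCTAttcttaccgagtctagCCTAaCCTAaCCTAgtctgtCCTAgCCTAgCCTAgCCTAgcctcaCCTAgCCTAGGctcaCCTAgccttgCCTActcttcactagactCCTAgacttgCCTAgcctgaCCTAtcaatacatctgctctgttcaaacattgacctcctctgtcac
flp-34: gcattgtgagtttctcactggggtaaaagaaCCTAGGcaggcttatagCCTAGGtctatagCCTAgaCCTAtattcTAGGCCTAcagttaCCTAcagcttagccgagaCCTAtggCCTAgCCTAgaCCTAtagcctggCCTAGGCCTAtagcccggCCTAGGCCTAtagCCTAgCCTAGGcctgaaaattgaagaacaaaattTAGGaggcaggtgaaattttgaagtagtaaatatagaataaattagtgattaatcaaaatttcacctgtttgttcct
nlp-19: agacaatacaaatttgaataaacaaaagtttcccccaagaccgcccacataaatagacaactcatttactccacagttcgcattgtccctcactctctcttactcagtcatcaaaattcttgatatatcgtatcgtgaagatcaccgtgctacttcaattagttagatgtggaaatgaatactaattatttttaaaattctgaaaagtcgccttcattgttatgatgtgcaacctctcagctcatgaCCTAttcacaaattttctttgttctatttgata
nlp-31: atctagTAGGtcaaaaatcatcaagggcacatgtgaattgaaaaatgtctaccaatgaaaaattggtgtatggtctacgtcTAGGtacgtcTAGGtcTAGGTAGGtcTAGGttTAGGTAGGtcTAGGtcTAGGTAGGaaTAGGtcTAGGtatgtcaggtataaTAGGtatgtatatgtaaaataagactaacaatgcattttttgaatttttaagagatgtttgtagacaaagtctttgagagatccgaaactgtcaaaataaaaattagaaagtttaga

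The 4 letters CCTA were chosen after the sequences had been read. On either strand they occurred 25 times in the *flp-14* peak, 23 times in the *flp-34* peak and 14 times in the *nlp-31* peak, against 6 times at *flp-17* and 1 time at *nlp-19*. Neighbouring copies were spaced by a few bases over much of the 3 repeat-rich peaks, so these are stretches of low complexity. At least 10 copies were present in 2 of 17 best pooled peaks at *flp* genes (11.8%) and 1 of 34 at *nlp* genes (2.94%), against 0.358% of the 6979 best pooled peaks over all genes. Those are the same 3 repeat-rich peaks, read before the letters were chosen. The choice thus set the higher share in advance, and the comparison says nothing about the families. Among all peaks the share was 0.583% in the pooled list, 0.467% in replicate 1 and 1.41% in replicate 2. G and C made up 51.4% of the *flp-14* peak and 40.7% of the *flp-17* peak, against 33.9% at *nlp-31* and 34.6% at *nlp-19*.

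AAAGTTT, with its shorter core AAGTT, is the motif known for Myt1-family proteins, and both were searched on either strand within 100 bp of each summit. AAAGTTT was present at 2 of 17 *flp* summits (11.8%) and 6 of 34 distinct *nlp* summits (17.6%), against 14.6% of the 6979 best summits over all genes. The core AAGTT, which every AAAGTTT contains, was present at 9 of 17 *flp* summits (52.9%) and 14 of 34 *nlp* summits (41.2%), against 55.7% over all genes. For the core both families thus lay below all genes, and for AAAGTTT *flp* summits lay below and *nlp* summits above. Each share rests on few summits, so these directions carry little weight, and no difference was tested. Over their whole 280 bp, the printed peaks of *nlp-19* and *nlp-31* hold 1 AAAGTTT each. Both copies lie more than 100 bp from the summit, so they are not in the counts above. The printed peak of *flp-34* holds 0 copies even of AAGTT. Over whole pooled peaks of 280 bp, 20.6% held AAAGTTT and 69% held AAGTT.

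In the pooled list 17 of 31 *flp* genes (54.8%) and 35 of 71 *nlp* genes (49.3%) had a window peak, against 39.1% of all genes. Replicate 1 gave a peak at 15 *flp* genes (48.4%) and 33 *nlp* genes (46.5%), against 39.3% of all genes. Replicate 2 gave one at 9 *flp* genes (29%) and 16 *nlp* genes (22.5%), against 28.1% of all genes. The members' share thus lay above the background in the list of the pooled replicates and in that of replicate 1, and near or below it in replicate 2. The higher share of replicate 1 was thus not found in replicate 2, and the difference from all genes was not tested. The median window was 1201 bp for *flp* genes, for *nlp* genes and for all genes, so the families did not differ from other genes in this median.

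Peaks in both replicates were rarer. They were found at 5 of 31 *flp* genes (16.1%) and 3 of 71 *nlp* genes (4.23%), against 12.8% of all genes. The same 8 genes also had a pooled peak, which 10.5% of all genes had together with both replicates. The *flp* genes were *flp-1*, *flp-4*, *flp-17*, *flp-18* and *flp-34*, and the *nlp* genes were *nlp-19*, *nlp-22* and *nlp-24*. Replicate peaks that overlapped by at least 1 bp were found at 2 *flp* genes (6.45%) and 1 *nlp* gene (1.41%), against 5.56% of all genes. Each count rests on few genes, and its place beside the background changed with the rule. With windows of 2000 and 500 bp the share in both replicates was 22.6% for *flp* and 29.6% for *nlp* genes, against 29.3% of all genes. With any overlap of peak and window it was 16.1% and 7.04%, against 16.4%, and with the most upstream 5′ end alone 6.45% and 4.23%, against 9.22%.

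**Figure D1:**
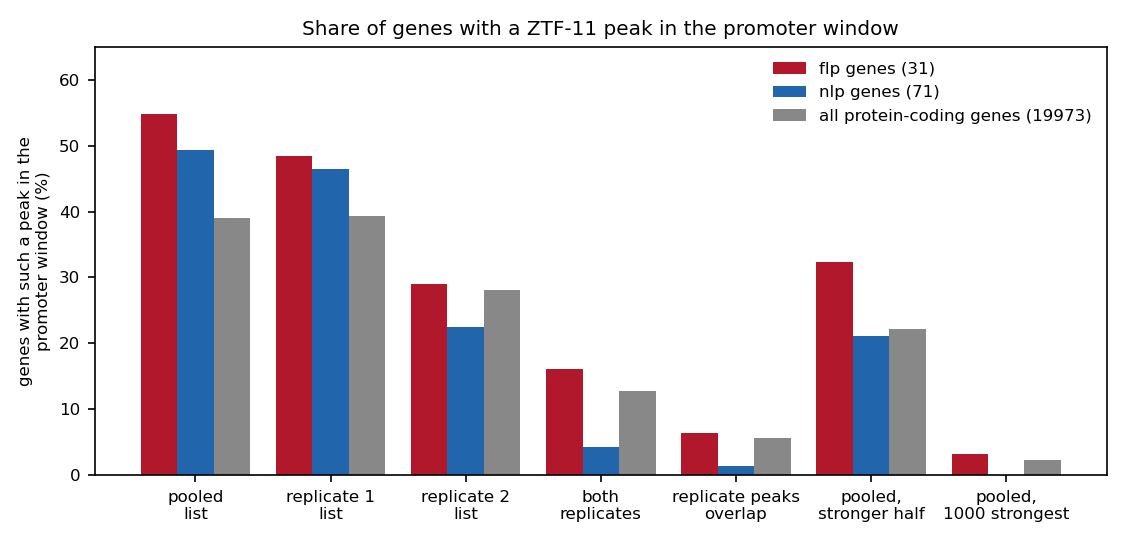
Bars give the percent of genes with a promoter peak for 31 *flp* genes (red), 71 *nlp* genes (blue) and 19973 protein-coding genes (grey), under 7 rules along the horizontal axis, of which the sixth keeps peaks at or above the median signal of the list. In the pooled list the bars stand at 54.8%, 49.3% and 39.1%, and in replicate 2 at 29%, 22.5% and 28.1%.

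The strength of the members' window peaks was set beside that of all genes. The shares here are of all genes of a set, with or without a peak, so they mix the presence of a peak with its strength. Medians among genes with a peak follow below. A best pooled peak at or above the list's median signal was found at 10 *flp* genes (32.3%) and 15 *nlp* genes (21.1%), against 22.2% of all genes. In replicate 1 the same rule held for 8 *flp* genes (25.8%) and 17 *nlp* genes (23.9%), against 22.3% of all genes. In replicate 2 it held for 2 *flp* genes (6.45%) and 7 *nlp* genes (9.86%), against 15.6%. In both replicates at once it held for 0 *flp* and 0 *nlp* genes, against 4.65%. By this rule the members' window peaks were thus never strong in both replicates, which leaves out peaks outside the windows. Among the 1000 strongest pooled peaks 1 lay at an *flp* gene (3.23%) and 0 at an *nlp* gene, against 2.21% of all genes. The 1 *flp* gene was *flp-17*. In replicate 1 the 1000 strongest peaks gave 0 *flp* and 0 *nlp* genes, against 2.02%, and in replicate 2 they gave 1 *flp* gene (3.23%) and 1 *nlp* gene (1.41%), against 2.1%. These 2 genes were *flp-14* and *nlp-24*. The list that the authors thresholded on the irreproducible discovery rate, 47 peaks with signal from 27.2 to 77.1, gave 0 *flp* and 0 *nlp* genes, against 0.175% of all genes, which is 35 genes. The nearest thresholded summit to any *flp* gene lay 15052 bp from *flp-18*, and the nearest to any *nlp* gene 20059 bp from *nlp-2*.

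Among genes with a pooled peak, *flp* signal ran from 5.83 through a median of 8.44 to 14.8, and *nlp* signal from 5.92 through 7.58 to 12.6, against a median of 8.11 and a highest value of 65.1 over all 7804 genes with a peak. In replicate 1 the medians were 8.14 for *flp* and 7.64 for *nlp* genes, against 7.91 over all genes with a peak. In replicate 2 they were 2.59 for *flp* and 3.09 for *nlp* genes, against 3.53. The *flp* median thus lay above that over all genes with a peak in the pooled list and replicate 1, and the *nlp* median below it in all 3 lists. In replicate 2 the median ranks were 16825 for *flp* and 12828 for *nlp* genes, against 10050. The pooled *flp* median was 7.36 with the most upstream 5′ end alone and 7.47 with windows of 500 and 100 bp.

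**Figure D2:**
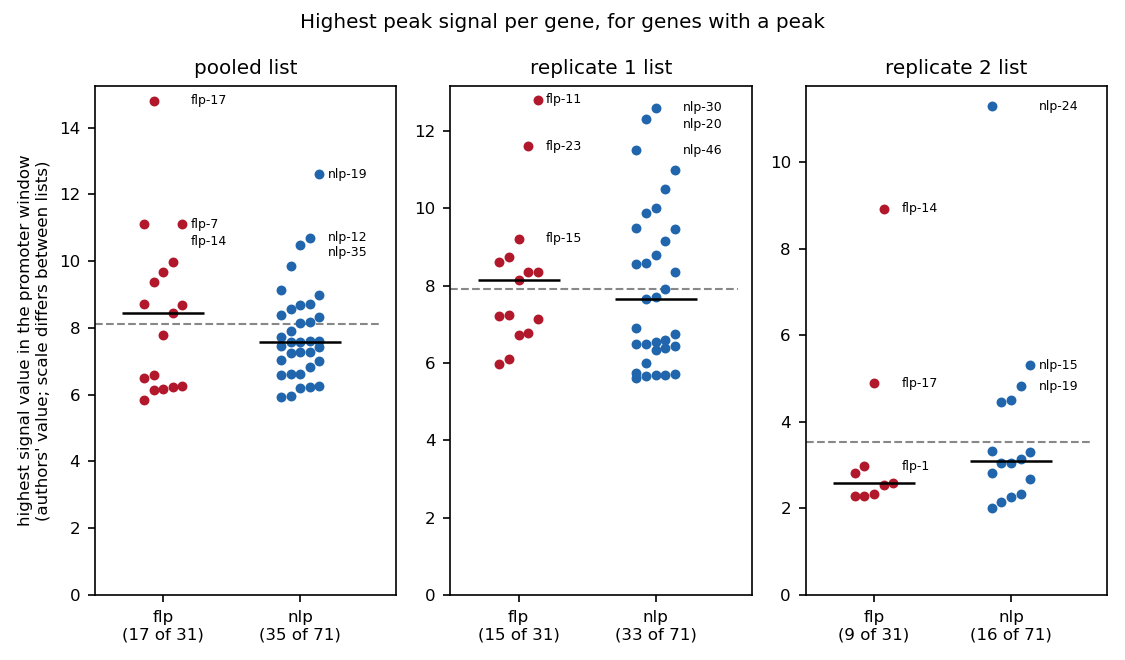
Points give the highest signal in the promoter window (the authors' value, vertical axis) of each *flp* gene (red) and *nlp* gene (blue) with a peak, in the pooled, replicate 1 and replicate 2 lists, with the 3 highest of each family named. Black lines mark the family medians (8.44 and 7.58 in the pooled list) and dashed grey lines the median over all genes with a peak (8.11 there).

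*flp-17*, whose peptides are released by the gas-sensing BAG neurons and inhibit egg laying, had the strongest pooled window peak of either family. Its signal was 14.8 in the pooled list (rank 645), 6.72 in replicate 1 (rank 20227) and 4.9 in replicate 2 (rank 4706). The 3 summits lay 556, 615 and 554 bp upstream of the 5′ end, and those of the replicates were 61 bp apart. It was thus high in the pooled list, well up in replicate 2 and in the weaker part of replicate 1. *flp-10*, which acts with it on the receptor EGL-6, had a peak in replicate 1 alone, with a signal of 8.14.

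*flp-1*, which acts in locomotion from the AVK interneurons, was the other *flp* gene with overlapping replicate peaks. Its signal was 6.26 in the pooled list (rank 25645), 7.22 in replicate 1 (rank 16868) and 2.98 in replicate 2 (rank 13645). The pooled and replicate 1 summits lay 70 bp downstream of a 5′ end in an intron of *flp-1*, and the replicate 2 summit 33 bp upstream, 111 bp away. The peaks here were shared in place but below the median signal of each of the 3 lists.

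The other 3 *flp* genes with peaks in both replicates have 2 or more annotated 5′ ends and long windows, and their replicate peaks did not overlap. *flp-34*, which encodes a relative of neuropeptide Y known for a part in learning, had signals of 8.71 (pooled), 8.34 (replicate 1) and 2.59 (replicate 2) in a window of 3603 bp. Its closest replicate summits were 435 bp apart. *flp-18*, a ligand of the receptor NPR-1, had signals of 8.7, 8.75 and 2.28 in the same order of lists, with the closest replicate summits 3730 bp apart. *flp-4* had signals of 9.97, 8.61 and 2.83, with the closest replicate summits 6595 bp apart. These 3 genes therefore count as shared by window and not by position.

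Genes with several 5′ ends have longer windows. Of genes with windows of 2000 bp or more, 4 of 4 *flp* (100%) and 2 of 5 *nlp* genes (40%) had a pooled peak, against 64.1% of all genes. Of genes with shorter windows, 13 of 27 *flp* (48.1%) and 33 of 66 *nlp* genes (50%) had one, against 35.3% of all genes. At windows under 2000 bp, too, the shares of both families in the pooled list lay above that of all genes.

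*flp-14* had a signal of 11.1 in the pooled list (rank 3531) and 8.93 in replicate 2 (rank 543), but no peak in replicate 1. The pooled peak is the repeat-rich sequence printed above, with the summits of the 2 lists 494 and 455 bp upstream. *flp-7*, known for promoting fat loss, had a pooled signal of 11.1 (rank 3500) at 466 bp upstream and no window peak in either replicate. Equal pooled signal at these 2 genes thus went with different replicate records.

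*flp-11*, which promotes sleep from the RIS neuron, had a signal of 9.68 in the pooled list (rank 6613) and 12.8 in replicate 1 (rank 1564), but no window peak in replicate 2. Both summits lay 837 bp upstream. *flp-23* had 9.38 in the pooled list and 11.6 in replicate 1 (rank 2696), but none in replicate 2. *flp-15* had 5.83 in the pooled list and 9.21 in replicate 1. *flp-21*, another NPR-1 ligand, had 6.49 in the pooled list and 5.96 in replicate 1. Neither gene had a replicate 2 window peak. The 3 highest *flp* values of replicate 1, at *flp-11*, *flp-23* and *flp-15*, thus had no window peak beside them in replicate 2. This was common over all genes, of which 39.3% had a replicate 1 window peak and 12.8% had one in both replicates. *flp-13*, which drives sleep after stress from the ALA neuron, had a window peak in replicate 2 alone, with a signal of 2.28 at 358 bp upstream.

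The remaining 6 *flp* genes with a pooled peak (*flp-2*, *flp-5*, *flp-6*, *flp-9*, *flp-25* and *flp-28*) had signals from 6.14 at *flp-28* to 8.44 at *flp-5*. A peak in 1 replicate alone and none in the pooled list was found at *flp-10*, *flp-16* and *flp-33* in replicate 1 and at *flp-13*, *flp-27* and *flp-32* in replicate 2. No peak in any of the pooled and replicate lists was found at 8 of 31 *flp* genes (25.8%) and 19 of 71 *nlp* genes (26.8%), against 39.3% of all genes. The *flp* genes without one were *flp-3*, *flp-8*, *flp-12*, *flp-19*, *flp-20*, *flp-22*, *flp-24* and *flp-26*. Of these, 6 lie on the X chromosome, which holds 13 of the 31 *flp* genes. The share of all X genes without a peak in any list was not computed.

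*nlp-19* had the strongest pooled window peak of the *nlp* genes and was the 1 *nlp* gene with overlapping replicate peaks. Its signal was 12.6 in the pooled list (rank 1734), 5.62 in replicate 1 (rank 29179) and 4.83 in replicate 2 (rank 4895). The summits lay 388, 382 and 403 bp upstream, those of the replicates 21 bp apart. As at *flp-17*, the position was closely shared while the replicate 1 peak lay below the median signal of its list.

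The other 2 *nlp* genes with peaks in both replicates did not share the place. *nlp-24*, of the YGGW-amide peptide group, had a signal of 8.17 in the pooled list (rank 12489), 5.68 in replicate 1 (rank 28665) and 11.3 in replicate 2 (rank 183). The pooled and replicate 2 summits lay 31 and 142 bp downstream, in an exon of *nlp-24*, and the replicate 1 summit 767 bp upstream. *nlp-22*, which promotes quiescence at the larval molts, had signals of 7.03 (pooled), 6.34 (replicate 1) and 4.47 (replicate 2, rank 5996), with replicate summits 810 bp apart. Its pooled and replicate 2 summits lay in an exon of the neighbouring gene *nlp-23*, and its replicate 1 summit in its own intron. *nlp-24* held the highest replicate 2 rank of all 102 genes, next to one of the lowest in replicate 1.

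*nlp-12*, a cholecystokinin-like peptide gene of the DVA neuron, had signals of 10.7 in the pooled list (rank 4308) and 6.91 in replicate 1, but none in replicate 2. Its pooled summit lay 567 bp upstream in an exon of *emr-1*, the gene of the nuclear envelope protein emerin. *nlp-35* had a pooled signal of 10.5 (rank 4554) with its summit 18 bp downstream in its own exon, none in replicate 1, and 2.33 at the same position in replicate 2. *nlp-47*, which encodes a relative of the gonadotropin-releasing and adipokinetic hormones, had signals of 9.15 in the pooled list and 8.57 in replicate 1, with none in replicate 2.

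A window peak in the pooled list and replicate 1 but not in replicate 2 was found at 7 *flp* genes (22.6%) and 19 *nlp* genes (26.8%), against 17.1% of all genes. Among them, *nlp-20* had signals of 8.14 in the pooled list and 12.3 in replicate 1 (rank 1985). *nlp-46* had 8.4 in the pooled list, with 11.5 in replicate 1 (rank 2848). For these genes replicate 1 ranked the peak much higher than the pooled list did. *nlp-9* had 8.32 in the pooled list, with 9.16 in replicate 1. *nlp-79* had 8.68 in the pooled list, with 9.88 in replicate 1. *nlp-25* had 9.0 in the pooled list, with 8.8 in replicate 1. The values of these 3 genes lay above the median of both lists. *nlp-4* had 8.71 in the pooled list and 6.38 in replicate 1, with both summits in an exon of *exos-3* and in the window of *ndub-10* as well.

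Of genes with well known roles, *nlp-8*, which acts in sleep from the ALA neuron, had a pooled signal of 7.9 and no peak in either replicate. *nlp-3*, which stimulates egg laying from the HSN neurons, had a signal of 6 in replicate 1 alone. *nlp-40*, released by the intestine to time defecation, had 7.9 in replicate 1 alone, at a summit that also lies in the window of *homt-1*. *nlp-15*, named for its replicate 2 value and not for a known role, had 5.31 in replicate 2 alone (rank 3719). These 4 genes stand together because each had a peak in only 1 of the 3 lists. Of the other *nlp* genes with well known roles, *nlp-9*, *nlp-12*, *nlp-22* and *nlp-31* had window peaks in more than 1 list and *nlp-29* in none. The 20 *nlp* genes with a pooled peak that the naming rule did not take had pooled signals from 5.92 at *nlp-69* to 8.58 at *nlp-71*.

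**Figure D3:**
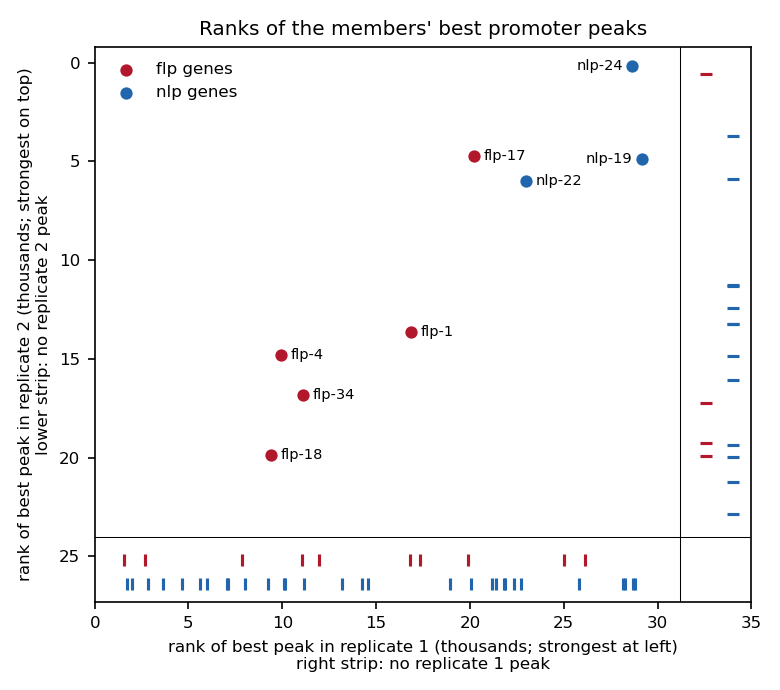
Each named point is a gene with a promoter window peak in both replicates, placed by the rank of its best peak in replicate 1 (horizontal axis) and replicate 2 (vertical axis, strongest on top), both in units of 1000 ranks, for 5 *flp* genes (red) and 3 *nlp* genes (blue). Ticks in the side strips are genes with a peak in 1 replicate alone, and no gene has both of its ranks in the stronger part of the lists.

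The best pooled peak of a gene was also set against the replicate peaks directly, by overlap of at least 1 bp. It overlapped peaks of both replicates at 2 of 17 *flp* genes (11.8%) and 1 of 35 *nlp* genes (2.86%), against 12% of all genes with a pooled peak. It overlapped a replicate 1 peak alone at 9 *flp* genes (52.9%) and 20 *nlp* genes (57.1%), against 52.9%. Overlap with replicate 1 alone was thus the most frequent case in both families. It overlapped a replicate 2 peak alone at 2 *flp* genes (11.8%) and 8 *nlp* genes (22.9%), against 13.4%. At 4 *flp* genes (23.5%) and 6 *nlp* genes (17.1%), against 21.7%, it overlapped neither. Pooled peaks at neuropeptide genes thus overlapped replicate 1 peaks more often than replicate 2 peaks, as those of other genes did. The replicate 1 list also holds more and wider peaks, 29985 of 390 bp against 22869 of 196 bp in replicate 2. The share of the overlap that goes with this was not tested.

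Summits were spread over the window. Of *flp* genes with a pooled peak, 6 had the best summit more than 500 bp upstream, 7 within 500 bp upstream and 4 downstream of the 5′ end, and of *nlp* genes 15, 12 and 8 did. The shares more than 500 bp upstream were 35.3% for *flp* and 42.9% for *nlp* genes, against 35.4% of all genes. Both families thus had summits in each part of the window. The median position was -465 bp for *flp* and -377 bp for *nlp* genes, against -325 bp for all genes, where a minus sign means upstream. By annotation, 10 of 17 *flp* summits and 19 of 35 *nlp* summits lay between genes, and 4 *flp* and 3 *nlp* summits lay in the gene's own introns. Exons of the gene itself held 0 *flp* and 6 *nlp* summits. These counts by annotation were not made over all genes, so they are not compared. The best summit lay in the window of another coding gene too at 0 *flp* genes and 5 *nlp* genes (14.3%), against 22.5% of all genes.

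**Figure D4:**
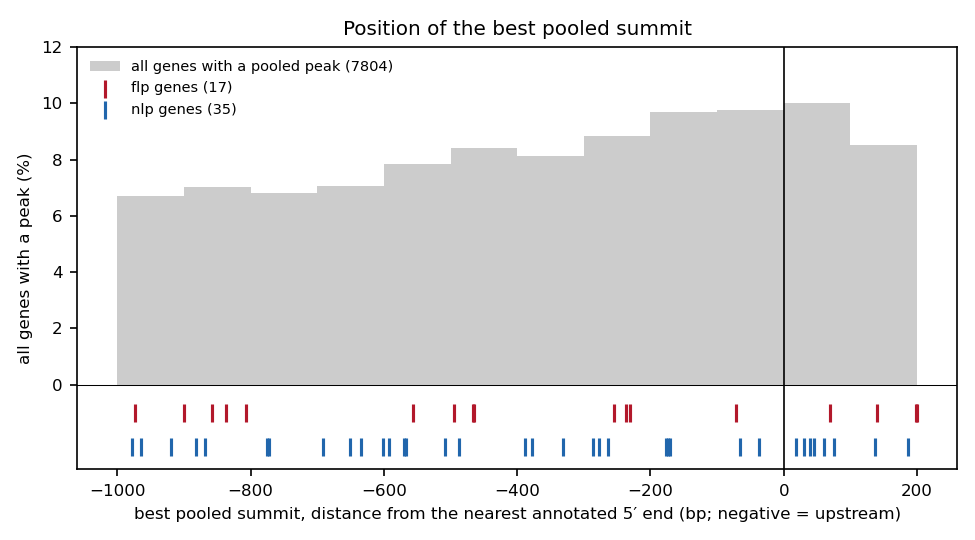
Grey bars give the percent of all 7804 genes with a pooled peak by distance of the best summit from the nearest 5′ end (horizontal axis in bp, negative upstream, bins of 100 bp). Not drawn are 93 genes whose best summit lies more than 200 bp downstream of its nearest 5′ end, in the window of another 5′ end of the gene. Ticks below the axis are the 17 *flp* (red) and 35 *nlp* (blue) genes, which lie across the whole window, with medians of -465 and -377 bp.

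By chromosome, a pooled peak was found at 6 of 13 *flp* genes on X (46.2%) and 11 of 18 on autosomes (61.1%), and at 7 of 19 *nlp* genes on X (36.8%) and 28 of 52 on autosomes (53.8%). Over all genes the shares were 41.5% on X and 38.7% on autosomes. On autosomes both families thus lay above all genes, and on X the *flp* share lay slightly above and the *nlp* share below. Chromosome V had the most such *nlp* genes, with 13 of 18 (72.2%), against 35.9% of all genes there. Clustered genes share part of this count, as the *nlp-31* and *nlp-34* summit does.

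Several members lie side by side. The V cluster, at chrV:3978825-3989770, holds *nlp-27*, *nlp-28*, *nlp-29*, *nlp-30*, *nlp-31* and *nlp-34*, and its genes are known for antimicrobial peptides that the epidermis makes after infection and injury. A pooled window peak was found at 4 of these 6 genes, against 35.9% of all genes on chromosome V. *nlp-30* had a signal of 9.86 in the pooled list (rank 6115) and 12.6 in replicate 1 (rank 1698), but no window peak in replicate 2. *nlp-31* and *nlp-34* share a summit with a signal of 7.58 in the pooled list and 3.04 in replicate 2. The pooled summit lay 635 bp upstream of *nlp-31* and 286 bp upstream of *nlp-34*, and neither gene had a replicate 1 window peak. *nlp-28* had 7.73 in the pooled list and 7.64 in replicate 1. *nlp-29*, the best known of these genes for its induction by fungal infection, and *nlp-27* had no window peak in any list. Window peaks in the cluster thus differed from gene to gene. They came from replicate 1 at *nlp-30* and *nlp-28* and from replicate 2 at *nlp-31* and *nlp-34*. Outside the windows the split was less clear. An exon of *nlp-30* held a replicate 2 peak of 3.04. A pooled peak of 5.86 in an exon of *nlp-34* overlapped peaks of 5.85 in replicate 1 and 2.68 in replicate 2. A pooled peak of 9.36, with a replicate 1 signal of 9.02, lay between *nlp-29* and *nlp-28* outside the windows.

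On X, *flp-28*, *flp-3* and *flp-2* lie within 7932 bp, inside a stretch that the gene W07E11.1 spans. *flp-28* and *flp-2*, a gene known for promoting arousal, had pooled window peaks with signals of 6.14 and 6.58 and none in either replicate. The strongest peak there, 12.6 in the pooled list (rank 1742) and 10.9 in replicate 1 (rank 3775), lay in an intron of W07E11.1 outside all 3 windows. *nlp-45*, *nlp-22*, *nlp-23* and *nlp-2* lie within 7167 bp, and *nlp-22* and *nlp-2* had a pooled window peak, with signals of 7.03 and 7.25. Window peaks in both X clusters were thus below the median of the pooled list.

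**Figure D5:**
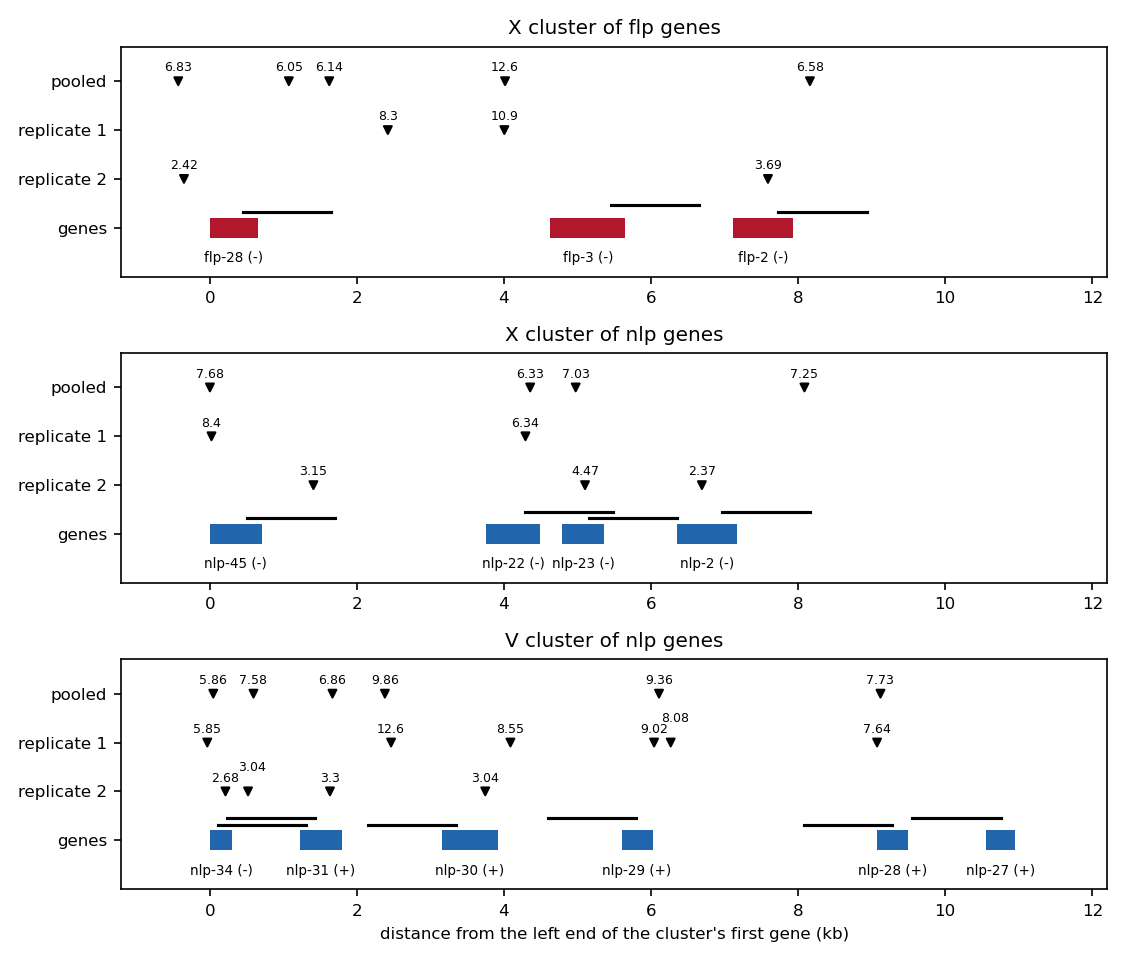
Triangles give peak summits in the pooled, replicate 1 and replicate 2 lists (rows) along 3 clusters of *flp* and *nlp* genes, by distance in kb from the left end of the first gene, with the authors' signal printed above each. Boxes are *flp* (red) and *nlp* (blue) genes with their strand, and black lines above them are promoter windows. The highest pooled values are 12.6 in the X *flp* cluster, outside the windows, 7.68 in the X *nlp* cluster and 9.86 in the V cluster.

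The genes that process and carry the peptides were listed too. Of 9 processing genes, 5 had a pooled peak (55.6%, against 39.1% of all genes) and 4 had one in both replicates (44.4%, against 12.8%). At none did replicate peaks with summits in the window overlap, against 5.56% of all genes where they did. *egl-3*, the proprotein convertase that makes most of these peptides, had a signal of 18.9 in the pooled list (rank 172), 8.42 in replicate 1 (rank 10735) and 11.1 in replicate 2 (rank 196). The pooled and replicate 2 summits lay 992 and 996 bp upstream, at the edge of a window of 2289 bp, and the replicate 1 summit 1499 bp away. It thus outranked the window peak of every *flp* and *nlp* gene in the pooled list. Replicate 2 had a summit beside this peak, and replicate 1 had none near it within the window. Replicate 1 peaks with a summit just past the window edge were not looked at, so sharing there is not known.

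*aex-5*, another convertase, had signals of 12.7 (pooled), 13.5 (replicate 1) and 5.25 (replicate 2), with replicate summits 624 bp apart. *egl-21*, the carboxypeptidase that trims the cut peptides, had 11, 7.82 and 3.96, with replicate summits 378 bp apart. *sbt-1*, the chaperone of *egl-3*, had 10.4, 9.94 and 2.63, with replicate summits 333 bp apart. These 3 genes, too, had window peaks in both replicates that did not overlap. *pgal-1*, an enzyme of amidation, had 7.6 in the pooled list alone. Of 10 genes of dense core vesicles, 3 had a pooled peak (30%, against 39.1% of all genes). In replicate 1 a peak was found at 1 of the 10, against 39.3% of all genes, and in replicate 2 at 6, against 28.1%. Of these vesicle genes 1 had a peak in both replicates (10%, against 12.8%). Of 5 other precursor genes 2 had a pooled peak (40%, against 39.1% of all genes), *pdf-2* at 9.82 and *ntc-1* at 9.8.

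Of 99 genes of neuropeptide receptors, taken by their names, 35 had a pooled peak (35.4%) and 8 had one in both replicates (8.08%), which is below the 39.1% and 12.8% of all genes. Replicate peaks overlapped at 3 of the 99, *npr-25*, *npr-28* and *frpr-5*, against 5.56% of all genes. Among the 1000 strongest pooled peaks were those of 2 of the 99, against 2.21% of all genes. They were *npr-37* with 17.1 (rank 286) and *gnrr-6* with 15.5 (rank 486). Both had a strong replicate 1 peak, 17.3 (rank 201) and 20.9 (rank 54), and no window peak in replicate 2. *egl-6*, the receptor of the *flp-17* and *flp-10* peptides, had signals of 8.56 in the pooled list, 7.38 in replicate 1 and 2.35 in replicate 2, with replicate summits 2032 bp apart. *npr-1*, the receptor of *flp-18* and *flp-21* peptides, had no window peak in any list. Of these ligand and receptor genes, *flp-17*, *flp-18* and *egl-6* had a window peak in all 3 lists.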

How the data were processed

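ChIP-seq peak lists of eGFP-ZTF-11 from 1 group of 2 biological replicates, numbered as in the labels, were used: the ce11 relaxed lists of each replicate and of the pooled replicates, and the thresholded list (4 lists, with 4 in ce10 not used here). Per the labels, fragments were 150 to 350 bp. The sources used here name no peak caller, aligner or settings, and control alignments were not analysed here. The authors gave each peak a signal of unstated scale, used to describe peaks and rank them inside 1 list. The deposited −log10 of a q value reached 0.629 in replicate 1 and 2.12 in the pooled list, while replicate 2 spanned 2.58 to 3.57, so no peak was selected by it.

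Genes came from Ensembl release 115 (WBcel235). Members and lists were chosen with earlier results of these data known. The text names, for each family, the 8 highest pooled values, the 3 highest in each replicate, members at or above the median of all lists (0 found), and 14 members with well known roles, 31 in all. Pathway lists were taken by name. Other names were chosen after their values were seen. With 1 group, counts are set beside all protein-coding genes, with no test. Alternatives were other windows, 5′ ends, overlap in place of summits, stronger peaks and each replicate alone. Assignment was checked on simulated data. Python 3.11.15, numpy 2.4.6, pandas 2.3.3 and matplotlib 3.10.9 were used. A planned comparison of precursor proteins was not made.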

Additional observations from a re-analysis of the deposited data

How the results depend on the processing

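In parentheses stands the share of the family, against that of all genes under the same setting. A pooled peak was found at 17 *flp* and 35 *nlp* genes, and these counts stayed within 1.5 times with windows of 2000 and 500 bp (67.7% *flp* and 62% *nlp*, against 60.1%), with the most upstream 5′ end alone (51.6% and 47.9%, against 35%) and with any overlap in place of the summit (54.8% and 53.5%, against 44.8%). They came to 11 *flp* and 19 *nlp* genes with windows of 500 and 100 bp (35.5% and 26.8%, against 24.1%), 10 and 15 with peaks at or above the list median (32.3% and 21.1%, against 22.2%), and 1 and 0 with the 1000 strongest peaks (3.23% and 0%, against 2.21%). With 1 replicate's list in place of the pooled list they ranged from 9 to 15 for *flp* and from 16 to 33 for *nlp*, the low end being without replicate 1. The higher *nlp* share was thus small or absent with either other window, stronger peaks or replicate 2. A peak in both replicates was found at 5 *flp* and 3 *nlp* genes. These came to 2 and 1 with windows of 500 and 100 bp (6.45% and 1.41%, against 5.05%), 7 and 21 with windows of 2000 and 500 bp (22.6% and 29.6%, against 29.3%), 5 and 5 with any overlap (16.1% and 7.04%, against 16.4%) and 2 and 3 with the most upstream 5′ end alone (6.45% and 4.23%, against 9.22%). They came to 0 and 0 with peaks at or above the median (against 4.65%) or the 1000 strongest (against 0.205%). No paired analysis was possible because there is 1 group and no test. The q value column, the unknown depth and the unstated signal scale limit all values.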

Other observations

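Peaks inside the genes but outside the promoter windows, chosen here after their values were seen, were present in the pooled list at 13 of 31 *flp* genes (41.9%) and 23 of 71 *nlp* genes (32.4%), against 47% of all genes. The median gene length was 1186 bp for *flp* and 860 bp for *nlp* genes, against 2027 bp for all genes. The strongest lay in an intron of *nlp-14*, 350 bp downstream of the 5′ end, with a signal of 15.4 in the pooled list (rank 508) and 16.7 in replicate 1 (rank 265) and no overlapping replicate 2 peak. It is stronger in the pooled list than any window peak of the 102 genes, while the window of *nlp-14* held a replicate 1 peak of 5.72 alone.

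An exon of *nlp-21* held a peak of 12.1 in the pooled list that overlapped peaks of 7.05 in replicate 1 and 5.2 in replicate 2. An exon of *flp-13* held a peak of 9.93, 1080 bp downstream of the 5′ end, that overlapped peaks of 9.41 in replicate 1 and 4.25 in replicate 2. *nlp-11* had the like in an intron, at 9.56, with 7.28 in replicate 1 and 4.61 in replicate 2. None of these 3 genes had a pooled peak in its promoter window, so the window rule misses peaks that both replicates share. An intron of *flp-34* held a pooled peak of 9.83 with a replicate 1 signal of 14.4 (rank 757), above its window peak of 8.71.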
